A study of Mus musculus with 5 samples.

Results

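Klk10, Klk8, Cytl1, Adh7, Gkn3, Bmp4, Bmp6, Tmem158 and Stmn2 were 9 of the 16498 genes of a single-cell RNA table of the mouse aorta, and they were followed inside and outside the endothelial cells of the vessel. They had been selected on their level in endothelial cells, so the contrast between inside and outside is a description here and was not tested. A cell entered the endothelial gate if at least 3 of the 5 genes Cdh5, Pecam1, Ptprb, Egfl7 and Ramp2 had a unique molecular identifier (UMI) and Ptprc, the common leukocyte antigen, had none. The gate held 1504 of 18260 cells, and 16756 cells lay outside it. Live cells from the aortic root to the curvature of the arch had been sorted and sequenced in 5 droplet 3′ libraries of pooled mice kept on normal chow for 28 weeks. All mice lacked Apoe, which makes them prone to atherosclerosis. The 2 Apoe-/- libraries were the littermate control group, and the 3 libraries labelled Oasl1-/-Apoe-/- came from mice in which the promoter and exon 2 of Oasl1, an interferon-induced oligoadenylate synthetase-like gene, had been removed in all cells. The study asked how the loss of Oasl1 alters aortic cells. The sources give 6 pooled mice without saying whether that is per group or per library, so p-values measure the spread between libraries, which may be technical.

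Arteries and veins are lined by endothelial cells that differ in the genes they use. Arterial identity is set by Notch, Sox17 and blood flow, and the luminal cells of the aorta carry secreted proteins that are scarce in capillary or venous endothelium. Klk10 and Klk8 encode secreted serine proteases of the kallikrein family, of which Klk10 is known to be kept high by steady flow, and Klk8 (neuropsin) is better known from brain and skin. Cytl1 encodes a small secreted protein known from cartilage, and Gkn3 a gastrokine named after the stomach. Bmp4 and Bmp6 are ligands of the bone morphogenetic protein family. Adh7 oxidises retinol, Tmem158 is a membrane protein induced by Ras signalling, and Stmn2 destabilises microtubules and is known from neurons.

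The gate held 394 and 396 cells of the Apoe-/- libraries and 252, 246 and 216 cells of the libraries labelled Oasl1-/-Apoe-/-, with median depths of 2961 and 2916.5 against 3539, 3559.5 and 3726.5 UMIs per cell. Between 56 and 77 cell barcodes of a library also occurred in another library. UMIs of Oasl1 itself numbered 27 and 16 over all control cells but 299, 257 and 315 in the Oasl1-/-Apoe-/- group. In the gate they numbered 4 and 0 against 4, 4 and 5, so nearly all of them lay outside it. The counts over all cells go against the label, although a 3′ tag lies outside the deleted part and does not settle it. Directions below therefore follow the labels. Gate cells of the groups also differed in other ways. A haemoglobin UMI was seen in 42.6% and 47.2% of gate cells against 15.1%, 18.3% and 19.9%. Lymphatic markers (at least 3 of Lyve1, Prox1, Mmrn1, Ccl21a and Flt4) were seen in 0 and 0 gate cells against 7, 7 and 8. Plvap, the diaphragm protein of fenestrated and venous endothelium, was detected in 39.6% and 40.9% of gate cells against 57.5%, 54.5% and 62.0%.

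Klk10 (ENSMUSG00000030693) and Klk8 (ENSMUSG00000064023) lie on the plus strand of chromosome 7 of the GRCm38 build, at 43781035 to 43785410 and 43797577 to 43803826, with a gap of 12166 bp that holds Klk9. Cytl1 (ENSMUSG00000062329) lies on chromosome 5 at 37735519 to 37739820. In the annotation, the noncoding gene 2310002F09Rik overlaps both kallikrein genes on the opposite strand. Adh7, Bmp4 and Bmp6 also overlap other genes, all of them on the opposite strand. Reads could therefore be shared only if strand was not used in counting, which is not given in the sources used here. The bases just before the transcription start are shown for Klk10, Klk8 and Cytl1, since Klk10 and Klk8 are neighbours whose expression parted outside the endothelium, and Cytl1 was the most abundant of the 9 genes. They were taken from RefSeq on GRCm38.p6 (chr7:43780804-43781053, chr7:43797327-43797576 and chr5:37735269-37735518, all on the plus strand), with capitals marking CACCC on either strand, the letters bound by Krüppel-like factors. The RefSeq start of Klk10 lies downstream of the gene start given above (43781035), so the last bases of its window lie inside the gene as annotated there.
Klk10: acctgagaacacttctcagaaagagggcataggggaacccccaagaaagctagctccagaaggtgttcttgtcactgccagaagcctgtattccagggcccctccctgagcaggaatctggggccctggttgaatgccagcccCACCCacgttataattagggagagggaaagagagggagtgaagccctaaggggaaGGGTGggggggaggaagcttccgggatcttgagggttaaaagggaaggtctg
Klk8: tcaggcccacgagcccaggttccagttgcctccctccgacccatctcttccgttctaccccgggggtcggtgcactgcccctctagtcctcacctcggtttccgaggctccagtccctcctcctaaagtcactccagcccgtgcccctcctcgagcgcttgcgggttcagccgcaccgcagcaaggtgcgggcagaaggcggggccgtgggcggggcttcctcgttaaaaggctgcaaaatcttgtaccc
Cytl1: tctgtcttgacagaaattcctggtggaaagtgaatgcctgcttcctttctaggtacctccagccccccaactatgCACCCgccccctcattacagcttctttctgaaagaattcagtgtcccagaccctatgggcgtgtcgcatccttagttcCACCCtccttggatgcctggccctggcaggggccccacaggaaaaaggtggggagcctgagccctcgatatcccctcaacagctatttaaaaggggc
The Klk10 and Klk8 sequences differed in base composition. Klk10 had 2 CpG dinucleotides in 250 bases (observed over expected 0.107), Klk8 had 18 (0.700) and Cytl1 had 4 (0.219), beside a median ratio of 0.373 over 32851 RefSeq promoters cut to the same length. CACCC was present in 3 of the 7 of these genes with a RefSeq entry (Klk10, Cytl1 and Adh7) and in 52.0% of all promoters. ACAAT, the core letters of Sox factors, was found in 1 (Adh7) and in 27.7% of all promoters. The ETS letters GGAAGT were found in 0 of the 7 genes and in 19.7% of all promoters. For the endothelial zinc-finger factor site AGATAA the count was also 0, beside 9.99% of all promoters. Both strands were searched, none of these motifs contains another, and no match says only that these letters are not in this window. Tmem158 and Stmn2 had no entry.

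Inside the gate, all 9 genes were detected in every library, and their levels outside were at most 4.57% of those inside. Levels are means over cells of UMIs per 10000 UMIs of the cell (CP10K), averaged over the 5 libraries, and 3′ UMIs count molecules without regard to transcript length. Cytl1 averaged 124 CP10K inside and 2.37 outside, and was the second most abundant of 9558 genes in the gate by this measure. The secreted BMP ligands were at 6.58 (Bmp4) and 5.32 (Bmp6) CP10K inside against 0.0735 and 0.0261 outside. Gkn3 and Adh7 fell off most steeply, from 5.87 to 0.0150 CP10K and from 3.75 to 0.0128 CP10K, that is to 0.256% and 0.342% of the inside level. Tmem158 stood at 10.6 inside and 0.0752 outside, and Stmn2 at 3.13 and 0.0161. The kallikreins parted from each other, since Klk10 outside (0.0127 CP10K) was at 0.570% of its inside level of 2.23 CP10K, and Klk8 outside (0.0621) was at 4.57% of its inside level of 1.36. Of all UMIs in the table, the gate held 95.4% for Klk10, 96.5% for Adh7, 97.0% for Gkn3, 95.4% for Bmp6 and 95.2% for Stmn2, but 72.1% for Klk8 and 72.7% for Cytl1. Bmp4 (87.7%) and Tmem158 (91.0%) were between them.

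The genes differed widely in how many endothelial cells carried them. A Cytl1 UMI was seen in 1385 of the 1504 gate cells (92.1%, Wilson 95% interval 90.6 to 93.3%), and a Tmem158 UMI in 1223 (81.3%). Bmp4 and Bmp6 were detected in 69.5% and 68.6% of gate cells, Gkn3 in 54.7%, Adh7 in 47.2% and Stmn2 in 38.6%. Klk10 and Klk8 were detected in the fewest, 405 cells (26.9%, 24.7 to 29.2%) and 398 cells (26.5%, 24.3 to 28.8%). In smooth muscle cells, which should lack these genes and were deeper (median 4944 UMIs against 3245.5 in the gate), a UMI was found in 0.0492% (Klk10 and Adh7) to 4.86% (Cytl1) of 10172 cells, and these shares are taken as the background of detection. Intervals and limits for counts of 0 cover counting error only. The highest cell reached 428 UMIs of Cytl1, 29 of Klk10 and 7 of Klk8.

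Most gate cells carried several of the genes together. At their own depth, 6 of the 9 genes were found in 322 cells (21.4%), 5 in 320 (21.3%) and all 9 in 22 (1.46%), while 37 cells (2.46%) had none. Outside the gate 14683 of 16756 cells (87.6%) had none, and 70 cells had 3 or more. Of those 70 cells, 37 carried 2 of the gate's markers and no more, 20 had at least 3 markers together with Ptprc, 10 had 1 marker and 3 had none. The edge of the gate was therefore not sharp. The 172 cells just inside, with exactly 3 markers and no Ptprc, had 3 or more of the 9 genes in 70.9% and a Cytl1 level of 122 CP10K, and the 120 cells just outside, with 2 markers and no Ptprc, had them in 30.8% and a Cytl1 level of 57.7 CP10K.

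Cells outside the gate were sorted by other marker sets into smooth muscle, fibroblast, macrophage or monocyte, T or NK cell, B cell, cartilage-like and mesothelial gates, and cells that met exactly 1 set were used. All 9 genes were low in smooth muscle cells, at 0.389% of the endothelial level or less (Bmp4), and at 1.02% or less in the 3277 macrophages or monocytes (Klk8). None of them but Cytl1 had a UMI in the 52 B cells, where a count of 0 allows a share of up to 5.77%. Klk10, Adh7 and Gkn3 reached at most 1.45% of their endothelial level in any of these gates (Adh7 in fibroblasts), and Bmp6 at most 2.29%, from 2 UMIs in cartilage-like cells. Since the genes were selected on their endothelial level, this is no support for their name. Klk8 and Cytl1 were as high in another gate, and Stmn2, Bmp4 and Tmem158 were present at lower levels in others, as described next. Whether the vessel bed is arterial cannot be read from these gates.

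**Figure D1:**
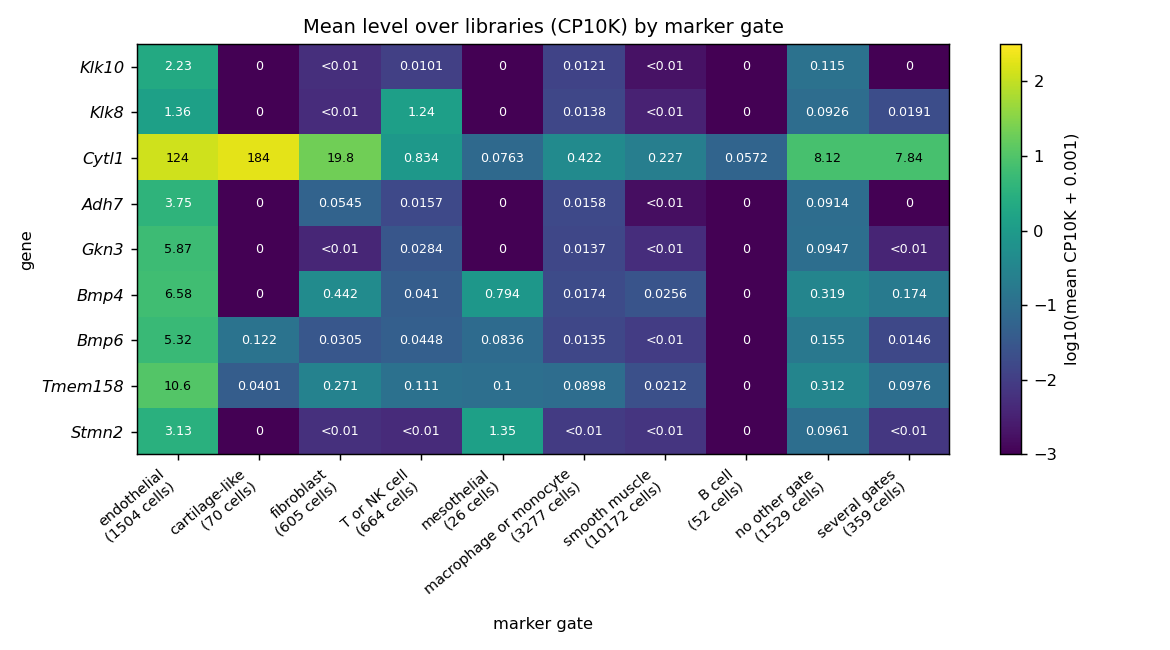
Mean level of each of the 9 genes (rows) in each marker gate (columns, number of cells in brackets), averaged over libraries with at least 3 cells of the gate; colour is log10(mean CP10K + 0.001) and the printed figure is the mean CP10K. Cytl1 is high in the endothelial (124), cartilage-like (184) and fibroblast (19.8) gates, Klk8 is as high in the T or NK gate (1.24) as in the endothelial gate (1.36), and Klk10 is near 0 outside the endothelial gate.

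Klk8 was found in T or NK cells at the level of endothelial cells. A Klk8 UMI was present in 131 of 664 such cells (19.7%, 16.9 to 22.9%) at a median depth of 1779.5 UMIs, against 26.5% of gate cells at 3245.5 UMIs and 0.0786% of smooth muscle cells at 4944. With each cell thinned to 1000 UMIs the shares were 10.9% and 11.7%. By library, the T or NK level was 1.53 and 1.34 CP10K in the Apoe-/- libraries and 1.20, 1.19 and 0.954 CP10K in the libraries labelled Oasl1-/-Apoe-/-. The mean of 1.24 ± 0.213 CP10K (SD, n = 5) overlapped that of the endothelial gate, 1.36 ± 0.197 (SD, n = 5). Klk10, its neighbour, had a UMI in 1 of these 664 cells. Cytl1, with a far higher endothelial level, had a UMI in 4.22% of them, and 25.0% of the T or NK cells with Cytl1 had Klk8 against 19.5% of those without. The following split of these cells was chosen after the values were seen. It was made at each cell's own depth over the pooled libraries of both groups, and the depths of its parts were not compared. Klk8 was present in 98 of 424 cells with Cd8b1 (23.1%, 19.4 to 27.4%), a chain of the CD8 co-receptor, and in 33 of 240 without it (13.8%, 9.96 to 18.7%). The other chain, Cd8a, gave no such split, with Klk8 in 20.7% (16.8 to 25.2%) of cells with it and 18.6% (14.7 to 23.4%) of those without. Klk8 was present in 0 of 12 cells with the NK receptor gene Klrb1c.

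Cytl1 was highest on average in cartilage-like cells, which carried at least 3 of Acan, Col2a1, Comp, Chad and Hapln1. In those 70 cells it was detected in 58 (82.9%, 72.4 to 89.9%). Its level was 429 and 279 CP10K in the Apoe-/- libraries, from 6 and 4 cells, and 44.97, 73.1 and 92.0 CP10K in the libraries labelled Oasl1-/-Apoe-/-, from 18, 20 and 22 cells. The mean of 184 ± 165 (SD, n = 5) spanned the endothelial level of 124 ± 16.1, so the order of these gates was not resolved. Fibroblast-gate cells came next with 19.8 ± 5.74 CP10K (SD, n = 5), below every endothelial library. That fibroblast level was uneven, since 34 of 605 cells exceeded 100 CP10K, the median cell had none, and the highest 60 cells held 91.8% of the summed level.

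Stmn2, Bmp4 and Tmem158 had lower levels in other gates. In the 26 mesothelial cells, all from the libraries labelled Oasl1-/-Apoe-/-, Stmn2 was at 3.42, 0.232 and 0.403 CP10K and Bmp4 at 0.452, 0.943 and 0.988 CP10K. The Stmn2 value of the first library rested on 3 of 10 cells with 21 UMIs between them. In the fibroblast gate Bmp4 was at 0.442 CP10K, 6.71% of its endothelial level, and was detected in 13.4% of cells (10.9 to 16.3%), and Tmem158 was at 0.271 CP10K and detected in 11.4%. Bmp6, the sister ligand of Bmp4, was detected in 1.49% of the same fibroblasts.

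Within endothelial cells the 9 genes did not vary as a block. Pearson correlations of the deposited log values were computed across the gate cells of each library for the 36 pairs and averaged over the 5 libraries. They are descriptions, since the points of a library share its depth and normalisation. The mean r was above 0 in every library for 25 pairs, below 0 in every library for 3, and of both signs for 8. The highest was that of the BMP ligands Bmp4 and Bmp6 (0.43, between 0.36 and 0.54 by library), followed by Bmp4 with Tmem158 (0.36) and Bmp6 with Tmem158 (0.36). Thinned to 1000 UMIs, Bmp6 was seen in 48.9% of cells with Bmp4 and in 29.8% of cells without it.

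**Figure D2:**
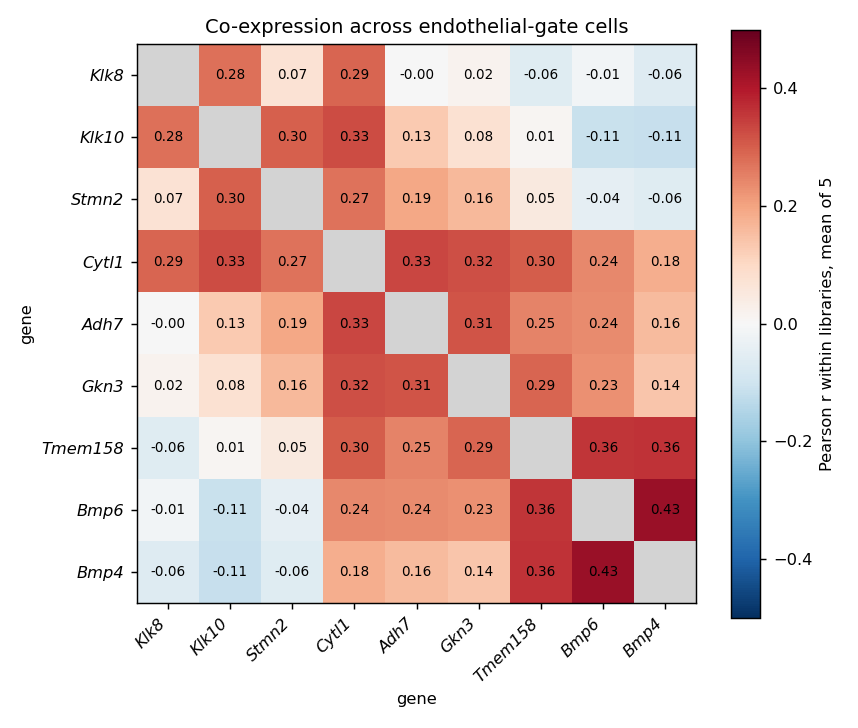
Mean over 5 libraries of the within-library Pearson r of deposited log values across endothelial-gate cells, for each pair of the 9 genes (grey diagonal left out). Bmp4, Bmp6 and Tmem158 form a block of 0.36 to 0.43, Klk10 pairs with Cytl1 (0.33), Stmn2 (0.30) and Klk8 (0.28), and Klk10 is below 0 with Bmp4 and Bmp6 (both -0.11).

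Klk10 went with other partners. Its mean r was 0.33 with Cytl1 (0.29 to 0.35 by library), which was seen in all thinned cells with Klk10, 0.30 with Stmn2 (0.25 to 0.34 by library) and 0.28 with its neighbour Klk8 (0.26 to 0.31). Stmn2 was seen in 36.9% of thinned cells with Klk10 and 19.9% of those without, and Klk8 in 21.7% against 9.98%. Klk10 and Klk8 were seen together in 47 thinned cells, 1.91 times the number that the product of their shares gives, although this ratio ran from 0.768 to 3.25 by library. With the BMP ligands Klk10 was below 0 in all 5 libraries, at -0.11 with Bmp4 and -0.11 with Bmp6, and Bmp4 was seen in 32.7% of cells with Klk10 and 43.8% of those without. The third such pair was Klk8 with Tmem158 (-0.06). Adh7 and Gkn3, the retinol-oxidising enzyme and the gastrokine, went together (0.31, joint detection 1.45 times the product of shares), and Cytl1 was above 0 with each of the other 8 genes, from 0.18 with Bmp4 to 0.33 with Adh7.

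The genes most like the mean of the 9 across gate cells were then listed, among 4566 genes present in at least 10% of gate cells. Among the highest were Pecam1 (r = 0.52, an adhesion molecule of endothelial junctions and 1 of the gate's markers), Cst3 (0.50, a secreted protease inhibitor), Heg1 (0.47, a junction receptor), Bgn (0.47) and Eln (0.44), both of the matrix, Ptprb (0.47, a phosphatase and gate marker) and Gxylt2 (0.44, a glycosyltransferase). At the other end stood Igfbp7 (-0.48), Marcksl1 (-0.42), Ctla2a (-0.42), Dpysl3 (-0.40), Fabp4 (-0.38, a fatty acid carrier of capillary endothelium), Cebpb (-0.37) and Tes (-0.35). Of 16 other arterial genes present in enough cells, 16 had an r above 0, with a median of 0.14, from 0.03 (Sox17) to 0.40 (Ltbp4). Of 7 venous and capillary genes, 1 (Vwf, 0.38) was above 0, and the median was -0.26. The median was also 0.14 for 12 pan-endothelial genes, of which 10 were above 0, and 0.12 for 16 flow-responsive genes, of which 12 were above 0, so the positive values were not particular to the arterial list. Over all genes compared 1644 were above 0 and the median was -0.02. The mean of the 9 genes was lower in deeper cells, with r from -0.36 to -0.14 by library against log depth. With every cell thinned to 1000 UMIs the highest and lowest likeness values kept their sign and were smaller, for example 0.33 for Pecam1, 0.28 for Heg1, 0.38 for Cst3 and -0.40 for Igfbp7. This did not hold for all small values, since Sox17 rose from 0.034 to 0.057 and the pan-endothelial gene Tie1 went from 0.016 to -0.0040. By single gene, the nearest partner was Emp2 for Klk10 (0.33), Cst3 for Cytl1 (0.67), Gxylt2 for Tmem158 (0.36) and Ly6c1 for Stmn2 (0.37), and another of the 9 genes for the rest (Cytl1 for Klk8, Adh7 and Gkn3, and each BMP ligand for the other). After thinning these values were 0.14 for Klk10 with Emp2, 0.56 for Cytl1 with Cst3 and 0.20 for Bmp4 with Bmp6.

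Detection of the genes was set beside that of Plvap, without a test. At 1000 UMIs, 416 gate cells had a Plvap UMI and 1053 had none. Stmn2 was seen in 13.9% of the former and 25.7% of the latter, Adh7 in 15.6% and 28.8%, Klk10 in 9.62% and 16.8%, and Cytl1 in 82.7% and 91.9%. The ranges over libraries did not overlap for Stmn2 (11.8 to 17.2% against 22.4 to 33.3%) and Klk10 (6.58 to 11.7% against 14.1 to 20.7%), and did for Adh7 and Cytl1. Cells with and without Plvap came from the same libraries, and these ranges ignore that pairing and span both groups. An overlap of ranges therefore does not exclude a difference within libraries. These percentages pool the libraries, and the libraries labelled Oasl1-/-Apoe-/- held more of their gate cells with Plvap. Gkn3 (31.5% and 32.4%), Bmp6 (36.3% and 38.5%), Klk8, Tmem158 and Bmp4 had overlapping ranges.

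**Figure D3:**
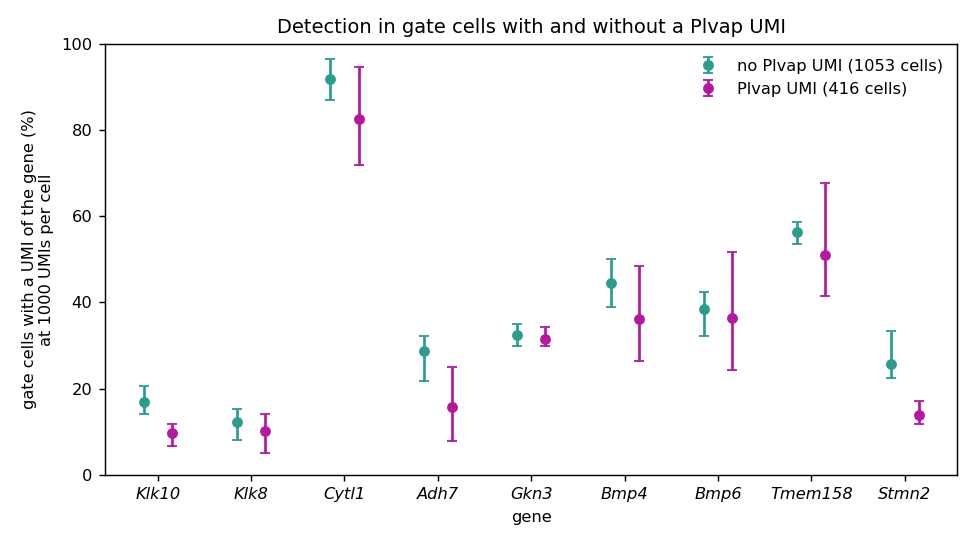
Percent of endothelial-gate cells with a UMI of each gene, every cell thinned to 1000 UMIs, for cells without (green) and with (magenta) a Plvap UMI; points pool all libraries and bars run from the lowest to the highest library. Stmn2 (25.7% against 13.9%) and Klk10 (16.8% against 9.62%) have ranges that do not overlap, and Gkn3 (32.4% and 31.5%) does not separate.

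The groups were compared next. In gate cells all 9 genes had lower means in the libraries labelled Oasl1-/-Apoe-/-, and 4 of them fell past the threshold (limma on log2(mean CP10K + 0.05) per library, Benjamini-Hochberg adjusted p under 0.05 over 9558 genes). Over all genes 3.59% were called, 1.09% lower and 2.5% higher, and 4 of 9 is a larger share. The 9 genes were chosen with earlier results of these data known, so this excess is a description and no independent support. Their median log2 difference was -0.26, against -0.01 over all genes. Such log2 values understate changes of low genes.

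Adh7 fell the most. Its level was 5.70 and 4.49 CP10K in the Apoe-/- libraries and 3.23, 3.10 and 2.25 in the libraries labelled Oasl1-/-Apoe-/-, or 5.09 ± 0.857 (SD, n = 2) against 2.86 ± 0.534 (SD, n = 3). The groups did not overlap, and the log2 difference was -0.83 (SE 0.125, limma adjusted p = 2.1e-05). Klk10 was at 3.11 and 2.68 CP10K against 1.89, 1.92 and 1.57, again without overlap, with a log2 difference of -0.68 (SE 0.124, limma adjusted p = 0.00035). A Klk10 UMI was seen in 32.2% and 29.0% of cells against 23.8%, 23.2% and 21.3%.

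Cytl1 and Bmp6 fell less. Cytl1 was at 149 and 127 CP10K against 124, 109 and 110.0 CP10K, where the lower Apoe-/- library and the highest of the other group lay close together, with a log2 difference of -0.26 (SE 0.060, limma adjusted p = 0.0057). The share of cells with Cytl1 parted more clearly, at 95.9% and 96.5% against 89.7%, 86.2% and 86.6%. Bmp6 was at 6.25 and 5.99 CP10K against 5.35, 4.62 and 4.38, with a log2 difference of -0.36 (SE 0.098, limma adjusted p = 0.029). Without Apoe-/- replicate 1, or without replicate 2 or replicate 3 of the other group, Cytl1 and Bmp6 no longer passed and Adh7 and Klk10 remained, so that 2 of the 9 were called, beside 297, 324 and 249 of all genes. Without Apoe-/- replicate 1 the Cytl1 difference was -0.15.

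The other 5 genes did not pass. Bmp4 was at 8.21 and 6.69 CP10K against 6.51, 5.44 and 6.07, without overlap, with a log2 difference of -0.30 (95% interval -0.50 to -0.11, limma adjusted p = 0.085). Its value rested on the control libraries, at -0.16 without Apoe-/- replicate 1 and -0.45 without Apoe-/- replicate 2, where it passed (limma adjusted p = 0.0035), and limma-voom also called it (adjusted p = 0.020). Groups overlapped for the remaining 4. Klk8 was at 1.39 and 1.62 CP10K against 1.31, 1.07 and 1.41, a log2 difference of -0.25 (-0.54 to 0.04). Gkn3 was at 6.99 and 5.602 against 5.66, 4.84 and 6.27 CP10K, a log2 difference of -0.17 (-0.38 to 0.04). Stmn2 was at 3.47 and 3.22 against 2.47, 3.47 and 3.004 CP10K, a log2 difference of -0.17 (-0.42 to 0.07). Stmn2 was called by limma-voom (-0.40, limma-voom adjusted p = 0.045), and Klk8, Gkn3 and Tmem158 were not. Tmem158 was at 12.2 and 9.80 against 10.2, 11.1 and 9.90 CP10K, a log2 difference of -0.08 (-0.25 to 0.10), whose upper bound is a rise of 0.10. The 5 genes whose groups did not overlap were Klk10, Cytl1, Adh7, Bmp4 and Bmp6, and over all genes 14.2% had every library of that group below every Apoe-/- library.

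**Figure D4:**
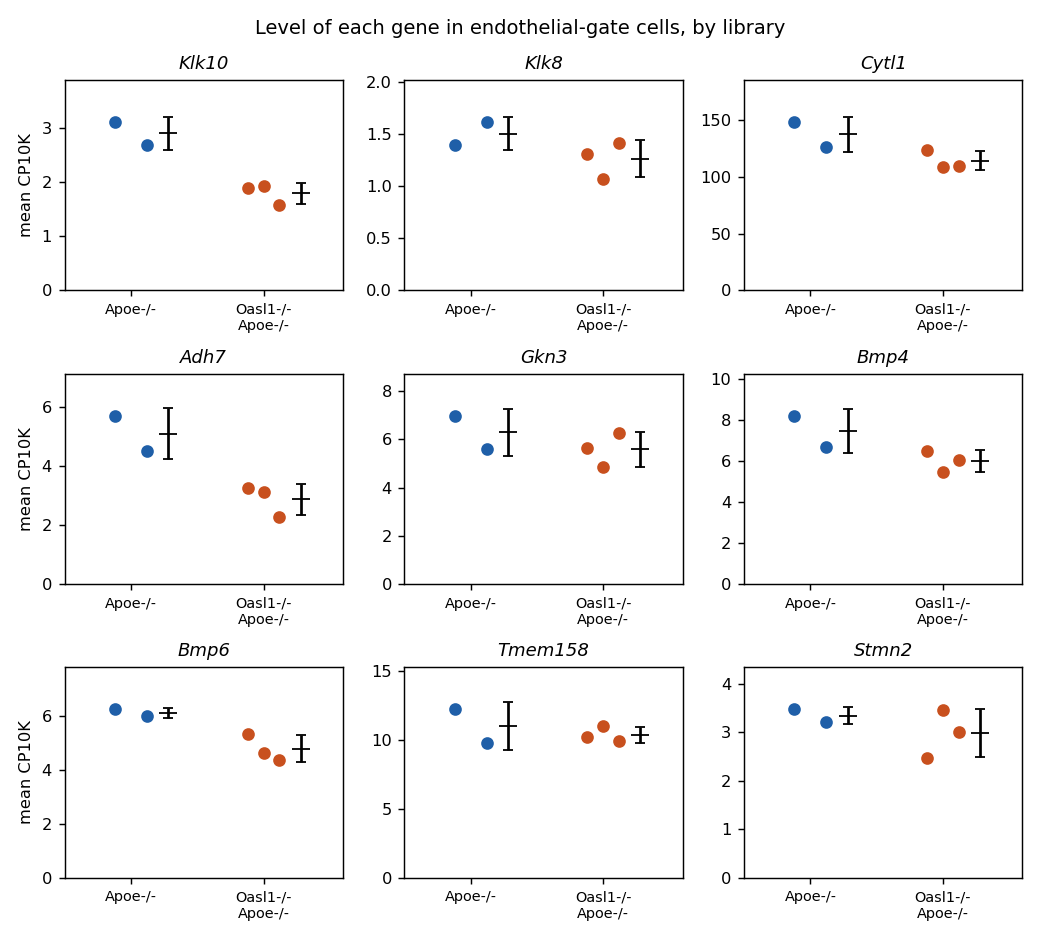
Mean CP10K of each gene over endothelial-gate cells in each library (points; blue Apoe-/-, orange libraries labelled Oasl1-/-Apoe-/-), with the group mean and SD beside them (n = 2 and n = 3) and axes from 0. Groups are apart for Klk10, Cytl1, Adh7, Bmp4 and Bmp6 and overlap for Klk8, Gkn3, Tmem158 and Stmn2.

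The make-up of the gate moved with the groups, and its part in the differences above was not tested beyond the restrictions given here. Plvap rose from 3.19 and 2.97 CP10K to 5.01, 4.83 and 6.33 (log2 difference 0.79, SE 0.108, limma adjusted p = 3.6e-06), and the share of gate cells with a Plvap UMI from 40.3% ± 0.930 (SD, n = 2) to 58.0% ± 3.81 (SD, n = 3; exact permutation p = 0.1, the smallest that 10 splits of 5 libraries allow). Among the 773 gate cells without a Plvap UMI, a restriction added after the data were seen, 0 of the 9 genes passed, with 2 at an unadjusted limma p under 0.05, and 0.783% of all genes were called, 0.233% lower. There the log2 difference was -0.49 for Klk10 (95% interval -0.84 to -0.14, limma adjusted p = 0.39), -0.42 for Adh7 (-0.74 to -0.10, limma adjusted p = 0.51) and -0.10 for Cytl1 (-0.23 to 0.04, limma adjusted p = 0.91). In the 400 gate cells with fewer than 2 venous and capillary genes, 0 of 9 passed and 3 had an unadjusted limma p under 0.05, beside 0.183% of all genes called and 0.0429% called lower. The log2 differences there were -0.61 for Klk10, -0.61 for Adh7 and -0.22 for Cytl1. The list of 21 genes holds Vwf, Plvap and Selp, seen in 70.9%, 48.6% and 44.5% of gate cells. Detection was at each cell's own depth, and 68.9% to 80.1% of a library's gate cells had 2 or more listed genes. The 400 cells are therefore not simply the gate without venous and capillary cells. Among gate cells without a haemoglobin UMI, Klk10, Cytl1 and Adh7 passed (log2 differences -0.75, -0.30 and -0.79, limma adjusted p from 0.0015 to 0.0054) and Bmp6 did not (-0.30, limma adjusted p = 0.22), beside 2.34% of all genes called and 0.567% called lower. At 1000 UMIs per cell only Adh7 passed (-0.85, limma adjusted p = 0.0084), beside 1.19% of all genes called and 0.326% called lower. Klk10 (-0.54), Cytl1 (-0.22) and Bmp6 (-0.37) did not pass there, with log2 differences close to those at full depth.

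**Figure D5:**
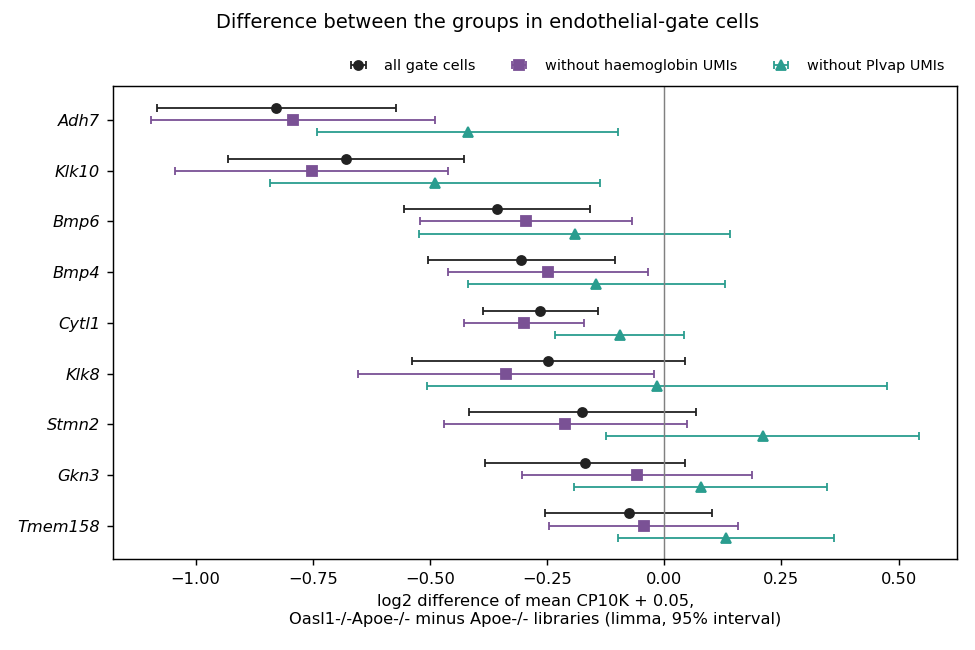
Log2 difference of each gene between the groups in endothelial-gate cells (points, limma) with 95% intervals, for all gate cells (black circles), gate cells without a haemoglobin UMI (purple squares) and gate cells without a Plvap UMI (green triangles). Adh7 moves from -0.83 in all gate cells to -0.42 without Plvap, Klk10 from -0.68 to -0.49, and Stmn2, Gkn3 and Tmem158 move above 0 without Plvap.

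The genes were also counted per cell. At 1000 UMIs, 3 or more of the 9 were seen in 79.9% and 73.2% of gate cells of the Apoe-/- libraries and in 64.4%, 65.1% and 65.9% of those of the libraries labelled Oasl1-/-Apoe-/-. The means were 76.6% ± 4.70 (SD, n = 2) and 65.1% ± 0.752 (SD, n = 3), a difference of -11.4 percentage points without overlap (exact permutation p = 0.1, the smallest possible). Cells with none of the 9 were rarer in the former, at 2.58% and 1.30% against 9.72%, 10.9% and 11.8%. Without Plvap-bearing cells the difference was -6.48 points. Among gate cells with fewer than 2 venous and capillary genes it turned to 6.00 points with overlapping groups (exact permutation p = 0.5). That last restriction has the limits given above.

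Outside the gate the direction was the other way for the 4 genes that passed the filter, but not for all of the rest. Klk8, Cytl1, Bmp4 and Tmem158 passed the filter of 0.05 CP10K there, and the other 5 did not, since their levels were too low. Of those 5, Adh7 was at 0.0207 and 0.0192 CP10K in controls against 0.0105, 0.0069 and 0.0069. Without the filter its log2 difference was -0.27 (limma adjusted p = 0.0037). Klk10 (-0.18) and Gkn3 (-0.01) were also below 0 there, Stmn2 (0.12) and Bmp6 (0.06) were above 0, and none of these passed. Bmp4 averaged 0.0506 ± 0.00542 CP10K (SD, n = 2) in controls against 0.0887 ± 0.00966 (SD, n = 3) (log2 difference 0.46, SE 0.087, limma adjusted p = 0.0018). Cytl1 was at 1.96 ± 0.336 against 2.64 ± 0.452 CP10K (0.41, SE 0.128, limma adjusted p = 0.024), and Klk8 at 0.0470 ± 0.00139 against 0.0721 ± 0.0114 CP10K (0.33, SE 0.094, limma adjusted p = 0.018). The control mean of Klk8 lay under the filter, so Klk8 was tested only through the group where it is higher. Bmp4 and Cytl1 were also called by limma-voom, and Klk8 was not (limma-voom adjusted p = 0.54). Tmem158 did not pass (0.23, limma adjusted p = 0.22). These 3 calls stand beside 42.9% of all genes called and 22.3% called higher outside the gate, so they do not stand apart from other genes. Cell types outside the gate changed in number between the groups, with 72 and 79 fibroblast-gate cells against 153, 143 and 158, and 96 and 83 T or NK cells against 157, 171 and 157, so a level over all outside cells moves with their numbers as well as with the level per cell. Within gates the directions differed by gene. Klk8 per T or NK cell, given above, was lower in every library labelled Oasl1-/-Apoe-/- than in either control. Bmp4 per fibroblast-gate cell was 0.317 and 0.189 CP10K in controls, from 9 and 7 UMIs, against 0.455, 0.750 and 0.497. Cytl1 per fibroblast-gate cell was 28.4 and 19.1 CP10K in controls against 12.7, 17.6 and 21.3, with overlap. In the smooth muscle gate Cytl1 was at 0.180 and 0.142 CP10K against 0.366, 0.119 and 0.330, also with overlap. Cytl1 per cartilage-like cell, given above, was lower in every library labelled Oasl1-/-Apoe-/- than in either control, from 4 to 22 cells per library. None of these was tested, and the share of all genes that part in this way within these gates was not counted. Without Apoe-/- replicate 2, Bmp4 alone passed.

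The difference between the inside and outside contrasts was tested directly, as log2 inside minus log2 outside per library. It was -0.77 for Bmp4 (SE 0.146, limma adjusted p = 0.097), -0.68 for Cytl1 (SE 0.188, limma adjusted p = 0.19), -0.58 for Klk8 (SE 0.198, limma adjusted p = 0.28) and -0.30 for Tmem158 (SE 0.145, limma adjusted p = 0.41). None of the 4 passed, with 3 at an unadjusted limma p under 0.05, and 0.361% of the 8583 genes compared did.

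Other genes of the same pathways and identities gave the setting. Of 23 other arterial genes tested in the gate (Sox17, Gja4, Gja5, Bmx and others), 0 were called, 9 had an unadjusted limma p under 0.05, limma-voom called 3, all lower, and the median log2 difference was -0.12. Venous and capillary genes moved the other way, with 10 of 18 called higher, 0 lower and a median of 1.08. The largest of these were Gpihbp1, the capillary anchor of lipoprotein lipase, at 0 and 0 CP10K against 0.805, 0.812 and 0.474, Mmrn1 at 0 and 0 against 0.687, 0.381 and 0.649, and Cd36 at 0.0624 and 0.00781 against 0.4996, 0.586 and 0.282. In controls these genes averaged under the filter of 0.05 CP10K, so they were tested only through the other group and could only be called higher. The count of 10 and the median of 1.08 include them. How many of the other listed genes were under the filter in controls was not counted. Plvap, given above, was over the filter in both groups. Mmrn1 is also 1 of the lymphatic markers, which were seen in gate cells of that other group only. In the BMP pathway, Id2, a target of BMP signalling, was the only other gene called of 19, at 3.80 and 4.01 CP10K against 3.15, 2.90 and 2.93 (log2 difference -0.38, SE 0.105, limma adjusted p = 0.032), and 12 of the 19 were below 0.

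The families of Adh7, the kallikreins, Stmn2 and Gkn3 were looked at in the same way. Adh1, another retinol-oxidising dehydrogenase, was detected in 32.5% of gate cells and 77 cells outside it. At the kallikrein locus only Klk11, between Klk12 and Klk10, could be tested beside the members, and it was not called (log2 difference -0.81). Klk11 was seen in 5.05% of gate cells and in 1 cell outside, Klk13 in 19 gate cells and Klk7 in 3, both in none outside. Of the stathmins, Stmn1 was tested and not called, and of the gastrokines Gkn1 was too low to test.

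Flow-responsive genes and the gate's own markers were compared last. Of 21 flow-responsive genes tested, 2 fell and 0 rose. Edn1, the vasoconstrictor endothelin, was at 6.75 and 5.75 CP10K against 4.16, 3.78 and 4.51 (log2 difference -0.58, SE 0.101, limma adjusted p = 0.00017), and Cyr61, a matrix-associated protein, at 22.9 and 19.9 against 16.7, 15.5 and 16.7 (-0.39, SE 0.075, limma adjusted p = 0.00073). Of 13 pan-endothelial genes 1 was called, the gate marker Ptprb, at 10.5 and 11.5 CP10K against 9.31, 8.90 and 8.68 (-0.30, SE 0.082, limma adjusted p = 0.029). The fall of Ptprb, by which cells were gated, was thus of the size seen for Cytl1 and Bmp6. The other 4 gate markers were not called, from -0.22 (Ramp2, limma adjusted p = 0.084) to 0.11 (Egfl7).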

How the data were processed

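The authors aligned reads of 5 droplet 3′ libraries to the mm10 (GRCm38) mouse genome with Cell Ranger 3.1.0, kept cells with over 200 genes and under 10% mitochondrial reads, removed doublets with DoubletFinder, and normalised with Seurat 4.0.3. The deposited values are, per the authors' methods and the values themselves, the natural log of 1 plus UMIs per 10000 UMIs of the cell. UMIs were recovered from them (100% whole within 0.01). Groups followed the labels of the libraries. The 9 genes, the gate and all gene lists were chosen with earlier results of these data known.

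Each library's mean CP10K over gate cells, or over all other cells, was compared as log2(mean + 0.05) with limma 3.58.1 in R 4.3.3 (lmFit and eBayes with a trend), for genes averaging at least 0.05 CP10K, with Benjamini-Hochberg adjustment over all genes and a threshold of 0.05. The script was tested on simulated data. Shares of cells were compared by two-sided exact permutation over libraries (SciPy 1.17.1), with Wilson 95% intervals. Cells were thinned to 1000 UMIs with a fixed seed where depth matters, leaving out shallower cells. Named genes were the 9 members, called genes of each list (the 3 largest where over 6 were called), the 8 most and 8 least like the members' mean, each member's nearest gene and the 5 gate markers. Some genes that this rule names are not reported here. Sequences and motifs came from RefSeq on GRCm38.p6, and gene positions from GENCODE. Alternatives covered the pseudocount, the filter, the gate, limma-voom on summed UMIs, thinning, a replicate block and leaving out each library. Total depth was 16959976 to 19813039 UMIs per library, and replicates differed beyond sampling noise.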

Additional observations from a re-analysis of the deposited data

How the results depend on the processing

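All 9 genes were below 0 in the gate with either other pseudocount, the mean of the deposited log values, limma-voom and each gate of at least 2 or at least 4 markers, with 3 to 6 of them called. Without a filter on low values 175 genes and 2 of the 9 were called. Gate cells without haemoglobin gave 223 genes and 3 of the 9, and thinning to 1000 UMIs 113 genes and 1 of the 9. The restriction to cells without Plvap, chosen after seeing the data, gave 74 genes and 0 of the 9, and the restriction to cells with fewer than 2 venous and capillary genes 17 and 0. These restrictions also leave fewer cells, and the cause was not tested.

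Directions turned for 5 genes. With fewer than 2 venous and capillary genes the log2 difference was 0.14 for Gkn3, 0.0053 for Bmp4, 0.11 for Bmp6 and 0.13 for Tmem158, and the share of cells with 3 or more of the genes differed by 6.00 points. Without Plvap it was 0.078 for Gkn3, 0.13 for Tmem158 and 0.21 for Stmn2, and with thinning 0.13 for Stmn2. Leaving out 1 library gave 242 to 324 genes and 2 to 5 of the 9 inside, 3353 to 4152 genes and 1 to 4 of the 9 outside, a share difference of -14.8 to -8.12 points, and -0.24 to 0.083 for Tmem158, which was above 0 without Apoe-/- replicate 1.

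Replicate numbers are shared between the groups, but same-numbered libraries did not deviate together (r = 0.017 and -0.013 across 9558 genes), so they share only a number. A replicate block gave 367 genes and 4 of the 9 inside (Klk10, Cytl1, Adh7 and Bmp4) and 3228 genes and 3 of the 9 outside (Klk8, Bmp4 and Tmem158, limma adjusted p = 0.033 for Tmem158, while Cytl1 lost its call at 0.10). Low detection of Klk10 and Klk8, and 2 or 3 libraries per group, limit the precision.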
